A study of Mus musculus with 15 samples.

Results

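The liver sinusoidal endothelial markers described here were 10 genes, taken by their symbols from a table of 17527 genes. They were Lyve1, Stab1, Stab2, Clec4g, Pecam1, Nos3, Kdr, Fcgr2b, Mrc1 and Vwf. Sequenced RNA came from 15 mouse livers, 5 in each of 3 groups. BBBPH mice and model mice both were fed for 20 weeks a diet meant to cause nonalcoholic steatohepatitis, in which fat supplied 60% of the calories, protein 20% and carbohydrate 20%, and cholesterol made up 0.2%. Both drank water with 42 g/L of sugar, of which 55% was sucrose and 45% fructose. After week 12, and still on the diet, BBBPH mice were given 150 mg/kg of biotransformed bear bile powder by mouth each day, whereas model mice were given saline. Control mice are labelled only as the control group, and the labels used here give neither their diet nor a strain, sex or age for any group. The powder group is labelled as 14 mice, of which 5 livers were sequenced. The comparisons asked what the diet model changed in these genes, what the powder changed on the same diet, and how dosed livers stood against control livers.

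Sinusoidal endothelial cells line the capillary-like channels of the liver. They have open pores and hardly any basement membrane, so that plasma reaches the hepatocytes directly. They take up waste molecules from the blood through scavenger and lectin receptors, and in liver disease they can lose their pores and take on traits of ordinary capillaries, a change known as capillarization. Of the genes described, Stab1, Stab2, Lyve1, Clec4g, Mrc1 and Fcgr2b encode receptors for uptake or binding of ligands, Kdr encodes a receptor for vascular endothelial growth factor (VEGF), Nos3 encodes the endothelial nitric oxide synthase, and Pecam1 and Vwf mark endothelium of many vessels.

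All 10 genes are protein-coding, and their positions are given on GRCm38 (GENCODE M21). Clec4g lies at chr8:3707064-3720651 (minus strand), Fcgr2b at chr1:170958617-170976547 (minus), Stab1 at chr14:31139013-31168641 (minus), Stab2 at chr10:86841198-87008025 (minus) and Lyve1 at chr7:110850607-110863239 (minus). Mrc1 lies at chr2:14229392-14332057 (plus), Kdr at chr5:75932827-75978458 (minus), Nos3 at chr5:24364810-24384474 (plus), Pecam1 at chr11:106654217-106750628 (minus) and Vwf at chr6:125546774-125686679 (plus).

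RefSeq promoter windows (GRCm38.p6, 250 bases before to 50 bases after the start) matched 6 of the 10 genes by symbol, namely Stab1, Stab2, Clec4g, Kdr, Fcgr2b and Mrc1. No window was matched for Lyve1, Nos3, Pecam1 and Vwf. Kdr is shown because it was called in opposite directions in the first 2 comparisons. Fcgr2b and Clec4g are shown because their standardized patterns over the 15 libraries, described below, lay nearest to that of Kdr among the markers. Stab2 is shown because it is a scavenger receptor whose pattern lay far from that of Kdr. This choice was made after the values had been seen. The windows are chr5:75978406-75978705 for Kdr, chr1:170976022-170976321 for Fcgr2b, chr8:3720602-3720901 for Clec4g and chr10:87007893-87008192 for Stab2, all on the minus strand and written 5′ to 3′. Capitals mark every match to the motifs searched on both strands, which were AGGAAG, a core of sites for ETS factors, AGATAA for the GATA family, CCACCC for the KLF family and AACAAT for the SOX family.
Kdr: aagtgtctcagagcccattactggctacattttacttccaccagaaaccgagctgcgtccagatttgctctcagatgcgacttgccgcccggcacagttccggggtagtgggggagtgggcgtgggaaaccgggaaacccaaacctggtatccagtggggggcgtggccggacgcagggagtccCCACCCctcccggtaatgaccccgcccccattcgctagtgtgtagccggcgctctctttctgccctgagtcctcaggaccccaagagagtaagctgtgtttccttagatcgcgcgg
Fcgr2b: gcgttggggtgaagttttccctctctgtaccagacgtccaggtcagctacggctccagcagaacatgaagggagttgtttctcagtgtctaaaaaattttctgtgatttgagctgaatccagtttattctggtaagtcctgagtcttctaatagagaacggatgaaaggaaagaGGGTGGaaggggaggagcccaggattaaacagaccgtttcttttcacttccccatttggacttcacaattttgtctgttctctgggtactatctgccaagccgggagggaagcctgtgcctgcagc
Clec4g: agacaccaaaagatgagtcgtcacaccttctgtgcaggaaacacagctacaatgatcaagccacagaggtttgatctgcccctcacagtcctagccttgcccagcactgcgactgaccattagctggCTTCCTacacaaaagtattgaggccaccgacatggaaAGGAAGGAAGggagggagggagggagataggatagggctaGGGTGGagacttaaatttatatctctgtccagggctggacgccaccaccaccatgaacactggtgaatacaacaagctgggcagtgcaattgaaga
Stab2: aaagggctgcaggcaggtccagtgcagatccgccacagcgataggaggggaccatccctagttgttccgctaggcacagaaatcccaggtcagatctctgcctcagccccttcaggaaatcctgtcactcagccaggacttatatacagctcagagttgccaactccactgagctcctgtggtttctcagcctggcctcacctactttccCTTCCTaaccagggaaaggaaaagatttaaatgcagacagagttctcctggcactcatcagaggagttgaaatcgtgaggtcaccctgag
The letters CCACCC, or GGGTGG on the other strand, stood at base -66 in Kdr, -76 in Fcgr2b and -46 in Clec4g, counted from the start, and were not in the Stab2 window. AGGAAG or its complement CTTCCT stood at base -40 in Stab2 and 3 times in Clec4g, where 2 of the matches overlap each other. Over the 6 windows, 4 held the KLF letters and 4 the ETS letters, and 0 held the GATA or SOX letters. Of the windows not shown, Stab1 held the KLF letters at base +35 and the ETS letters. The Mrc1 window held the ETS letters but not the KLF letters, although Mrc1 was the next nearest marker to Kdr after Fcgr2b and Clec4g. Of 32851 promoter windows of the same length, 31.5% held the KLF letters, 35.4% the ETS letters, 11.2% the GATA letters and 10.7% the SOX letters. A match of letters describes the window only and is not evidence of a bound factor.

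Values are the authors' FPKM (fragments per kilobase of transcript, scaled to library size), and libraries held 35395713 to 39624161 fragments. In a gene 1 kilobase long, each fragment added 0.0252 to 0.0283 FPKM. None of the 10 markers was at 0 in any library. Each group had 1 library with an unusual level of genes of some other kind. BBBPH 2_2 had a summed 3079 FPKM of 6 pancreatic acinar markers (group median 21.4), model 1_4 had 35712 FPKM of 7 hepatocyte markers (group median 58951), and control 2_1 had 350 FPKM of 6 skeletal muscle markers (group median 1.33). Whether same-group livers came from separate litters or cages is not stated, so p-values measure the spread between these libraries.

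Clec4g had the highest mean level of the markers and Nos3 the lowest in all 3 groups. In BBBPH livers the means ran from Clec4g at 82.7 FPKM through Fcgr2b (48.9), Mrc1 (18.9), Pecam1 (13.3), Kdr (11.2), Stab2 (8.03), Stab1 (7.24), Lyve1 (5.09) and Vwf (1.54) to Nos3 at 0.886 FPKM. In that order only the neighbours Stab2 and Stab1 had overlapping ranges in BBBPH livers. Control livers had the same order, from 71.1 FPKM of Clec4g to 0.902 FPKM of Nos3, and there Pecam1 overlapped Kdr, Stab2 overlapped Stab1 and Vwf overlapped Nos3. In model livers Lyve1 stood next after Pecam1 at 13.5 FPKM, with ranges that overlapped. Kdr, at 7.4 FPKM, stood below Stab2 in model livers, with overlapping ranges. Ranges in model livers also overlapped between Clec4g and Fcgr2b, Mrc1 and Pecam1, Kdr and Stab1, and Vwf and Nos3. In model 1_4, Nos3 (1.84 FPKM) stood above Vwf (1.71 FPKM). FPKM values are per length, so that levels can be set beside each other between genes.

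**Figure D1:**
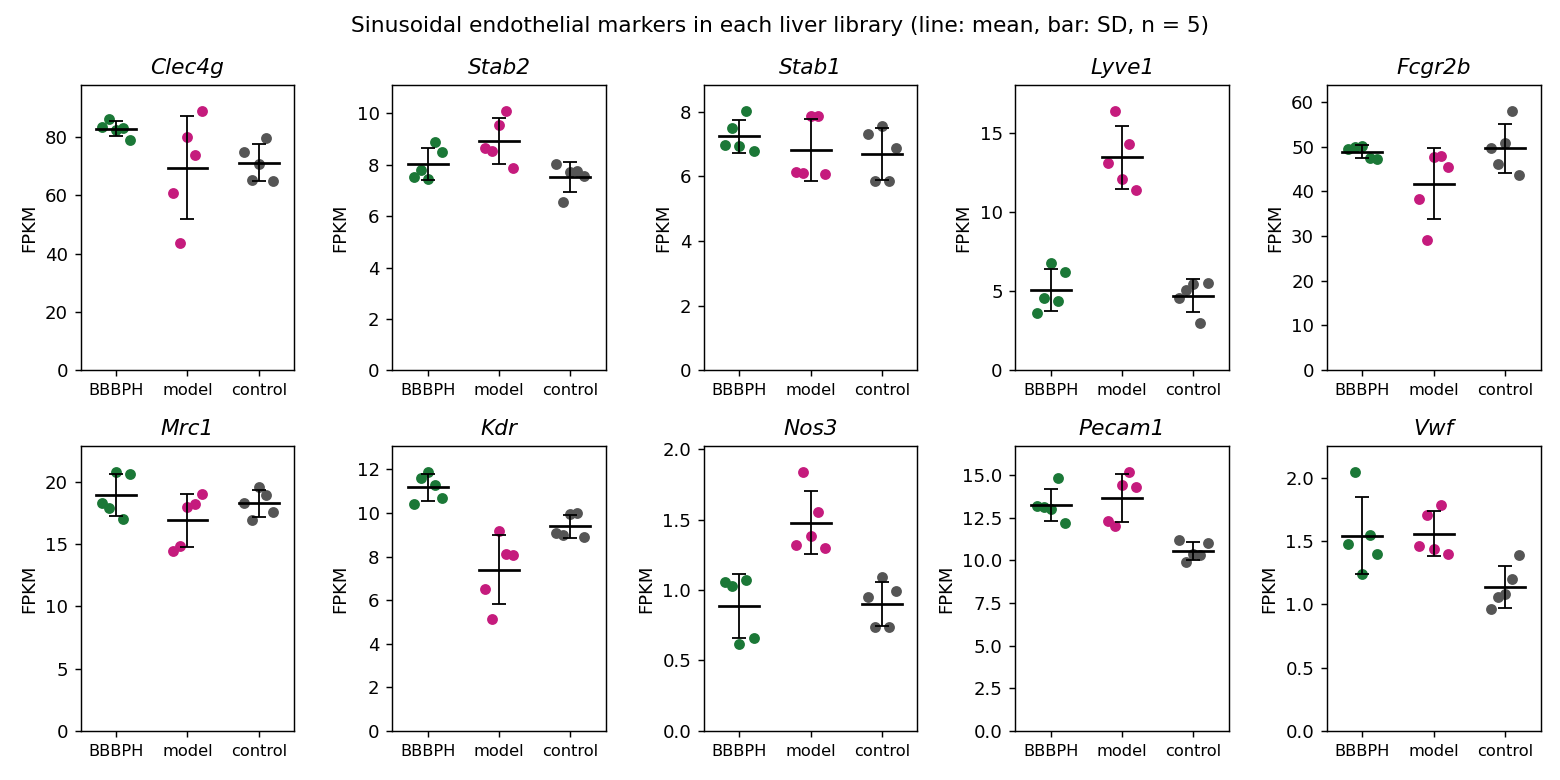
FPKM of each marker in each library (points), with the mean (line) and SD (bar) of the 5 BBBPH, 5 model and 5 control livers. Lyve1 and Nos3 are higher in all 5 model livers than in any BBBPH or control liver, and Kdr is higher in all 5 BBBPH livers than in any other liver.

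In model against control livers, Lyve1, Nos3, Pecam1, Vwf and Stab2 rose and Kdr fell, while Stab1, Clec4g, Fcgr2b and Mrc1 did not pass the test. Fold changes are differences of log2(FPKM + 1) from limma, and calls were made below 0.05 in the p adjusted by Benjamini and Hochberg over the 9575 genes that averaged 1 FPKM or more. Thus 5 of the 10 markers were called higher, where 29.9% of all tested genes were, and 1 of 10 lower, where 8.64% were (38.6% in either direction). The median fold change of the markers was 0.12, and that of all genes tested was 0.117. Ranges of the groups did not overlap for 4 markers called higher (18.8% of all genes) and for 0 lower (5.07%). With median-ratio scaling of the libraries the median of all genes became -0.012, so that about 0.1 of each change from control depends on the scaling. Under median-ratio or quantile scaling, Stab2 and Vwf lost their calls, and Fcgr2b and Mrc1 were called lower. Lyve1, Nos3 and Pecam1 stayed higher and Kdr lower. Of all 9575 genes, 1483 were called higher and 1809 lower with median-ratio scaling, so the mostly upward split of calls was not kept.

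In BBBPH against model livers, Kdr rose and Lyve1 and Nos3 fell, and the other 7 markers did not pass the test. Called higher were 1 of 10 markers (14.2% of all genes) and called lower 2 of 10 (12.2%), with 26.5% of all genes called in either direction. The groups did not overlap for these same 3 markers, 1 higher (9.11% of all genes) and 2 lower (7.9%). The median fold change was 0.04 over the markers and 0.019 over all genes. Lyve1, Nos3 and Kdr were thereby called in opposite directions in the 2 comparisons, 3 of 10 markers, where 15.1% of all genes were. Both comparisons use the model libraries, so that a deviation of these libraries enters both with opposite sign.

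In BBBPH against control livers, Pecam1 and Vwf were called higher, 2 of 10 markers (24.4% of all genes), and 0 were called lower (3.7%), with 28.1% of all genes called in either direction. Groups did not overlap for Pecam1 and Kdr, which were higher (15.3% of all genes), and for 0 lower (2.22%). Medians were 0.10 for the markers and 0.133 for all genes. Neither call was kept under median-ratio or quantile scaling. In whole liver RNA, fewer cells of a type and less RNA per cell cannot be told apart.

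**Figure D2:**
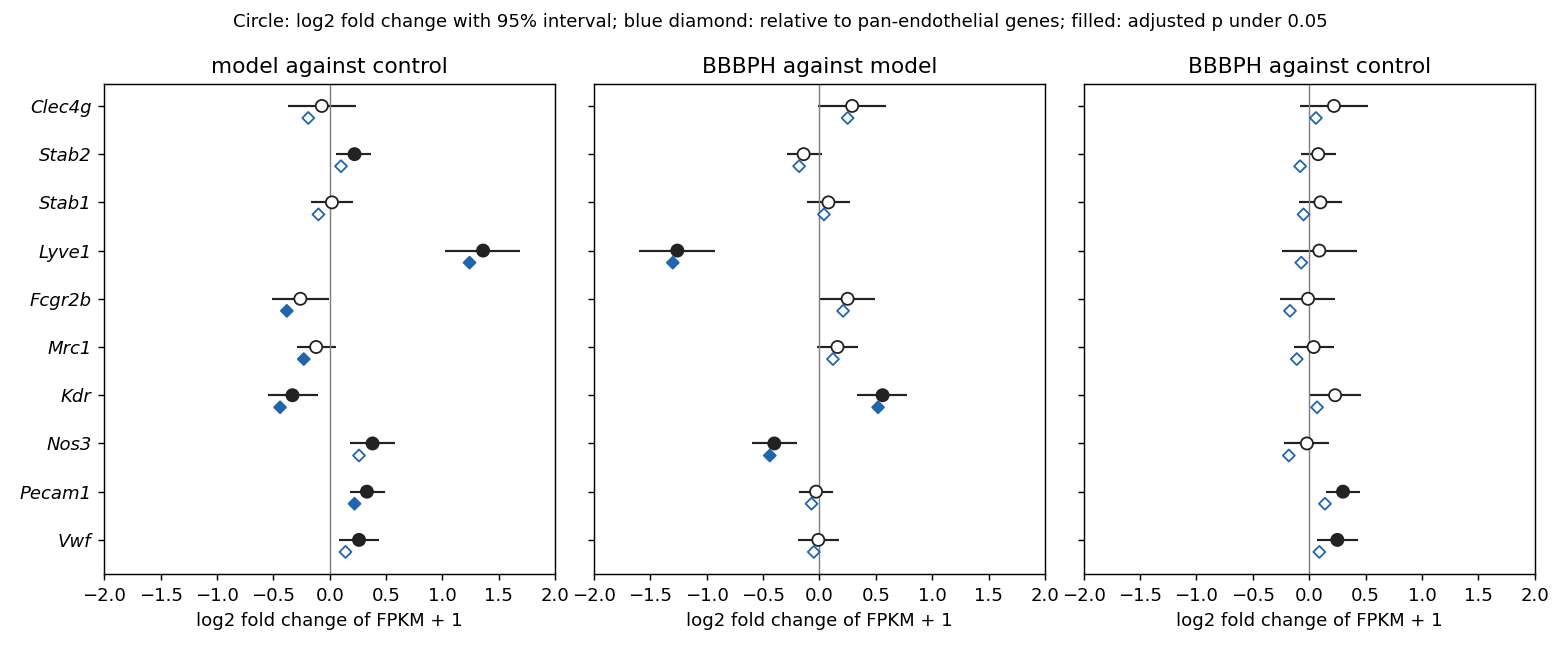
Log2 fold change of FPKM + 1 of each marker (x axis) in model against control, BBBPH against model and BBBPH against control, with the 95% interval (circles) and relative to the mean of 16 pan-endothelial genes (blue diamonds). Filled symbols passed an adjusted p of 0.05. Lyve1 lies at 1.36 in the first panel and -1.26 in the second, Kdr at -0.33 and 0.56.

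Lyve1, a receptor of the hyaluronan-binding link family that marks both sinusoidal and lymphatic endothelium, showed the largest change of the markers. Its levels were 3.59, 4.56, 6.77, 4.36 and 6.19 FPKM in BBBPH livers (2_1, 2_2, 3_1, 3_2 and 3_4), 13.1, 16.4, 12.1, 14.3 and 11.4 FPKM in model livers (1_1, 1_4, 2_1, 2_3 and 3_4), and 4.54, 5.06, 5.44, 2.97 and 5.49 FPKM in control livers (1_1, 1_5, 2_1, 2_2 and 3_4). All 5 model livers lay above all others, and the BBBPH and control ranges overlapped. Lyve1 averaged 13.5 ± 1.96 FPKM in model livers and 4.7 ± 1.04 FPKM in control livers (SD, n = 5 each), a ratio of 2.86 and a log2 fold change of 1.36 ± 0.16 (SE, adjusted p = 2.12e-05). In BBBPH livers it averaged 5.09 ± 1.33 FPKM, 0.379 of the model mean, with a log2 fold change of -1.26 ± 0.16 (adjusted p = 5.55e-05). Between BBBPH and control livers the difference was 0.09, with a 95% interval of -0.24 to 0.42 (adjusted p = 0.683). The Lyve1 levels rested on 287 to 1574 fragments per library. Both calls held with each library left out in turn, at 1.23 to 1.41 for model against control and -1.36 to -1.17 for BBBPH against model. Set against the mean of 16 pan-endothelial genes in the same library, the 2 changes were 1.24 (adjusted p = 0.000124) and -1.30 (adjusted p = 1e-04).

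Stab2 and Stab1 encode the stabilins, large scavenger receptors that clear hyaluronan and modified proteins from the blood. Stab2 had 7.52, 7.81, 7.45, 8.88 and 8.49 FPKM in BBBPH livers, 8.65, 8.52, 9.56, 10.1 and 7.86 FPKM in model livers, and 8.05, 6.55, 7.72, 7.77 and 7.57 FPKM in control livers, in the library order given above. Of the model livers, 4 of 5 lay above every control liver, and model 3_4 lay within the control range. Stab2 rose in model livers by 0.22 ± 0.07 on the log2 scale (adjusted p = 0.0289). Besides a fit with the replicate number as a block (the replicate block), that call was lost under median-ratio and quantile scaling, relative to the pan-endothelial genes (0.10, adjusted p = 0.284), without model 2_1, model 2_3 or control 1_5, and with the 3 libraries that stood apart left out together (0.24, adjusted p = 0.0593). In BBBPH against model livers Stab2 differed by -0.14 (95% interval -0.29 to 0.02, adjusted p = 0.19).

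Stab1 had 6.96, 7.49, 6.95, 8.03 and 6.79 FPKM in BBBPH livers, 6.14, 6.1, 7.88, 7.86 and 6.08 FPKM in model livers, and 7.3, 5.85, 7.56, 5.87 and 6.88 FPKM in control livers. The 3 groups overlapped throughout. The intervals of the log2 fold changes were -0.17 to 0.21 for model against control, -0.11 to 0.27 for BBBPH against model and -0.09 to 0.29 for BBBPH against control, with adjusted p of 0.874, 0.526 and 0.394. Stab1 shares 112 exon bases with Nt5dc2 on the opposite strand, and whether counting used the strand is not stated. Nt5dc2 averaged 9.09 ± 2.7 FPKM in BBBPH livers, 3.77 ± 0.54 FPKM in model livers and 4.64 ± 0.992 FPKM in control livers.

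Clec4g encodes LSECtin, a C-type lectin of the sinusoidal lining. It had 83.4, 86, 82.2, 83.1 and 79 FPKM in BBBPH livers, 60.9, 43.5, 79.9, 73.7 and 88.9 FPKM in model livers, and 74.7, 65.2, 70.8, 79.7 and 64.9 FPKM in control livers. The BBBPH livers were alike, with a coefficient of variation of 3.07%, against 25.5% in model livers and 8.95% in control livers. Model 1_1 and 1_4 lay below every other liver of the study for Clec4g, and model 3_4 lay above every other liver. None of the 3 differences passed the test, with log2 fold changes of -0.07 for model against control (adjusted p = 0.716), 0.29 for BBBPH against model (adjusted p = 0.145) and 0.22 for BBBPH against control (adjusted p = 0.253). Without model 3_4, Clec4g was called higher in BBBPH than in model livers (0.39, adjusted p = 0.0475), and without model 1_4 the difference was 0.14 (adjusted p = 0.326). In a fit of BBBPH and control livers alone, Clec4g was called higher in BBBPH livers (0.22, adjusted p = 0.0374).

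Fcgr2b encodes the inhibitory Fc gamma receptor, which on sinusoidal endothelium takes up small immune complexes. Its levels were 49.5, 50, 50.2, 47.5 and 47.3 FPKM in BBBPH livers, 38.4, 29.2, 47.6, 48 and 45.5 FPKM in model livers, and 49.7, 46.1, 50.8, 58 and 43.6 FPKM in control livers. Model 1_1 and 1_4 were again the 2 lowest livers of the study. The coefficient of variation was 2.82% in BBBPH livers, 19.2% in model livers and 11.1% in control livers. Fcgr2b differed by -0.26 between model and control livers (95% interval -0.51 to -0.01, adjusted p = 0.0861) and by 0.25 between BBBPH and model livers (0.0 to 0.49, adjusted p = 0.132). Median-ratio scaling, quantile scaling and centring on pan-endothelial genes each turned the first of these into a call (adjusted p from 0.00483 to 0.0125). The Fcgr2b sequence resembles that of its paralog Fcgr3 in the extracellular part, so that reads may have been shared between them.

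Mrc1, the mannose receptor, is made by sinusoidal endothelium and also by macrophages. It had 18.3, 17.9, 20.8, 17 and 20.6 FPKM in BBBPH livers, 14.4, 14.8, 18, 18.2 and 19 FPKM in model livers, and 18.3, 16.9, 19.6, 18.9 and 17.6 FPKM in control livers. Model 1_1 and 1_4 were the 2 lowest libraries for Mrc1 as well. The differences were -0.12 for model against control (adjusted p = 0.284), 0.16 for BBBPH against model (adjusted p = 0.175) and 0.04 for BBBPH against control (adjusted p = 0.716). Under the same 3 changes of scaling as for Fcgr2b, Mrc1 was called lower in model than in control livers, with adjusted p from 0.0176 to 0.0379.

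**Figure D3:**
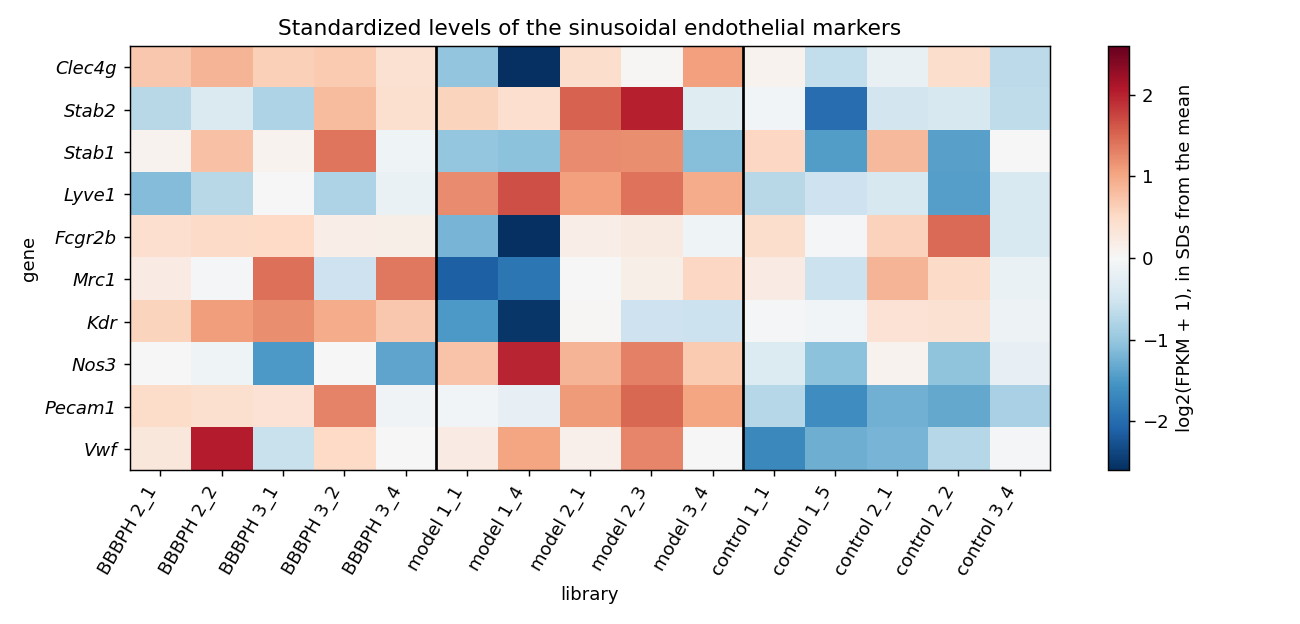
Levels of the 10 markers (rows) in the 15 libraries (columns, grouped as BBBPH, model and control by black lines), as log2(FPKM + 1) in SDs from each gene's mean. Model 1_1 and 1_4 are low in Clec4g, Fcgr2b, Mrc1 and Kdr, whereas Lyve1 and Nos3 are high in all 5 model libraries.

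Kdr encodes VEGF receptor 2, the main receptor through which VEGF keeps endothelium alive and, in the liver, fenestrated. It had 10.4, 11.6, 11.9, 11.3 and 10.7 FPKM in BBBPH livers, 6.53, 5.13, 9.19, 8.1 and 8.07 FPKM in model livers, and 9.1, 9, 9.94, 9.99 and 8.9 FPKM in control livers. All 5 BBBPH livers lay above all others, and 4 of 5 model livers lay below every control liver, with model 2_1 inside the control range. Kdr averaged 7.4 ± 1.58 FPKM in model livers and 9.38 ± 0.532 FPKM in control livers, a ratio of 0.789 and a log2 fold change of -0.33 ± 0.11 (adjusted p = 0.0247). In BBBPH livers it averaged 11.2 ± 0.638 FPKM, 1.51 times the model mean, with a log2 fold change of 0.56 ± 0.11 (adjusted p = 0.00142). Against control livers the BBBPH difference was 0.23 (95% interval 0.0 to 0.46, adjusted p = 0.116), although the ranges did not overlap. This difference was called in a fit of those 2 groups alone (adjusted p = 0.019) and without model 1_4 (adjusted p = 0.0327).

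Model 1_4, which had the lowest summed hepatocyte markers, also had the lowest Kdr, at 5.13 FPKM. Without it, Kdr differed by -0.22 between model and control livers (adjusted p = 0.0442), and it rose by 0.45 in BBBPH against model livers (adjusted p = 0.00113). Besides the replicate block, the model against control call was lost without model 1_1, without control 2_1, without control 2_2, with the 3 libraries that stood apart left out together, and in a fit of those 2 groups alone (adjusted p from 0.0506 to 0.106). The rise in BBBPH against model livers held with each library left out in turn, at 0.45 to 0.63. Relative to the pan-endothelial genes, Kdr fell by 0.44 in model against control livers (adjusted p = 0.00068) and rose by 0.52 in BBBPH against model livers (adjusted p = 0.000258).

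Nos3, the synthase that makes nitric oxide in endothelium, had the lowest mean level of the markers. It had 1.06, 1.03, 0.62, 1.07 and 0.657 FPKM in BBBPH livers, 1.32, 1.84, 1.38, 1.55 and 1.3 FPKM in model livers, and 0.947, 0.735, 1.09, 0.741 and 0.994 FPKM in control livers. All 5 model livers lay above all others. Nos3 rose in model against control livers, to 1.64 times the control mean (log2 fold change 0.38 ± 0.09, adjusted p = 0.00503), and fell to 0.599 times the model mean in BBBPH livers (-0.40 ± 0.09, adjusted p = 0.00549). These levels rested on 94 to 282 fragments per library. Nos3 passed the filter of 1 FPKM through the model group, since its means were 0.886 FPKM in BBBPH and 0.902 FPKM in control livers. With no filter both calls were kept (adjusted p = 0.00729 and 0.00823). The rise was not called relative to the pan-endothelial genes (0.26, adjusted p = 0.0768), whereas the fall was (-0.44, adjusted p = 0.00798). Nos3 shares 294 exon bases with Atg9b on the opposite strand, which averaged 0.0449, 0.0376 and 0.0112 FPKM in BBBPH, model and control livers.

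Pecam1 encodes CD31, an adhesion molecule at the contacts between endothelial cells. It had 13.2, 13.1, 13, 14.8 and 12.2 FPKM in BBBPH livers, 12.3, 12, 14.4, 15.2 and 14.3 FPKM in model livers, and 11.2, 9.91, 10.4, 10.3 and 11 FPKM in control livers. Every liver on the diet, dosed or not, lay above every control liver. Pecam1 rose by 0.33 ± 0.07 in model against control livers (adjusted p = 0.00198) and by 0.30 ± 0.07 in BBBPH against control livers (adjusted p = 0.00683). BBBPH and model livers differed by -0.03, with an interval of -0.18 to 0.12 (adjusted p = 0.772). The call in BBBPH against control livers was lost under median-ratio scaling, quantile scaling and pan-endothelial centring (adjusted p from 0.0621 to 0.145).

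Vwf encodes von Willebrand factor, which platelets bind and which is made by large-vessel endothelium and megakaryocytes and is low in healthy sinusoids. It had 1.48, 2.05, 1.24, 1.55 and 1.4 FPKM in BBBPH livers, 1.46, 1.71, 1.44, 1.79 and 1.4 FPKM in model livers, and 0.964, 1.06, 1.08, 1.2 and 1.39 FPKM in control livers. Model and control ranges met at 1.4 and 1.39 FPKM without overlap, and BBBPH 3_1 lay within the control range. Vwf rose by 0.26 ± 0.08 in model against control livers (adjusted p = 0.0246) and by 0.25 ± 0.08 in BBBPH against control livers (adjusted p = 0.0402). Besides the replicate block, the first call was lost in 7 alternatives and the second in 13, with adjusted p up to 0.273 and 0.554.

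Over the 10 markers, the summed level was 193 to 202 FPKM in BBBPH livers, 139 to 204 FPKM in model livers and 166 to 195 FPKM in control livers. Clec4g and Fcgr2b, the markers with the highest means, made up most of these sums. The lowest sum was that of model 1_4 and the highest that of model 3_4, so model livers spanned the ranges of both other groups. In model 1_4, Clec4g, Fcgr2b, Kdr and Pecam1 were the lowest of their group while Lyve1 and Nos3 were the highest.

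The nearness of patterns was measured as the root-mean-square distance of standardized log2(FPKM + 1) over the 15 libraries, where identical patterns give 0. Nearest to Kdr among the tested genes were Ehd3 and Cry2 (0.31 each), H2az1 (0.36), Tasor and Slc25a47 (0.37 each), with a median of 1.31 over all genes. Ehd3 is itself a gene of sinusoidal endothelium, which encodes an endocytic recycling protein. Of the other markers, Fcgr2b (0.54), Clec4g (0.58) and Mrc1 (0.69) lay nearest to Kdr, while Lyve1 and Nos3 lay at 1.80. Model 1_4 was the lowest library for Kdr, Fcgr2b and Clec4g, at -2.53, -2.97 and -2.86 SDs from their means. Distances without model 1_4 were not computed, so how far this nearness rests on that library was not tested. Nearest to Stab2 were Lrsam1 (0.39), Usp5 (0.45), Invs (0.46), Snx19 (0.48) and Smim14 (0.49), with Pecam1 at 0.78 and Kdr at 1.54. Lyve1 was added to this comparison after its values had been seen, and Pafah1b1 (0.31), Sqstm1 (0.32), Cald1 (0.34), Serpinh1 and Slc30a5 (0.35 each) lay nearest to it, with Nos3 at 0.69 and Kdr at 1.80.

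Counts in the following lists stand beside shares over all genes of 29.9% higher and 8.64% lower in model against control livers, and of 14.2% higher and 12.2% lower in BBBPH against model livers. For further genes of sinusoidal endothelium the called share was near the 38.6% of all genes called in either direction. Of 10 tested of 12, 2 rose (Ctla2a and Flt4) and 2 fell (Fam167b and Ehd3) in model against control livers, and in BBBPH against model livers Fam167b and Ehd3 rose and Ctla2a fell. Ehd3 averaged 35.3 ± 1.61 FPKM in BBBPH livers, 25.3 ± 6.46 FPKM in model livers and 31.9 ± 1.53 FPKM in control livers, with log2 fold changes of -0.36 for model against control (adjusted p = 0.0433) and 0.50 for BBBPH against model (adjusted p = 0.0117). The call of Ehd3 in model against control livers was lost in 14 alternatives besides the replicate block, among them leaving out model 1_1 or model 1_4. Fam167b averaged 10.2 ± 1.2, 6.62 ± 1.64 and 9.14 ± 1.17 FPKM in BBBPH, model and control livers. Ctla2a, which encodes a protease inhibitor, averaged 3.67 ± 0.169, 5.29 ± 0.768 and 2.58 ± 0.641 FPKM in BBBPH, model and control livers, and was called in all 3 comparisons. Its call in BBBPH against control livers was lost under median-ratio scaling, quantile scaling and centring on pan-endothelial genes (adjusted p from 0.0721 to 0.143). Flt4, the gene of VEGF receptor 3, rose by 0.28 in model against control livers (adjusted p = 0.0187), a call lost under median-ratio and quantile scaling, which left 1 of the 10 genes higher and 3 lower. The median of the 10 genes was 0.04 in model against control and 0.11 in BBBPH against model.

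Among 16 pan-endothelial genes, S1pr1, Esam, Robo4 and Sox18 rose and 0 fell in model against control livers, with a median of 0.10, but 1 rose (S1pr1) and 2 fell under median-ratio scaling, quantile scaling or centring. Centring sets the mean change of these same 16 genes to 0, so it is no separate check on this list. S1pr1, a receptor for sphingosine-1-phosphate that steadies endothelial junctions, averaged 15.4 ± 1.21 FPKM in BBBPH livers, 20.9 ± 2.35 FPKM in model livers and 14.7 ± 1.52 FPKM in control livers, with no overlap of the model range with the others. It changed by 0.47 in model against control livers (adjusted p = 0.00062) and by -0.41 in BBBPH against model livers (adjusted p = 0.0023). In BBBPH against model livers 2 of 16 rose, Cldn5 and Erg, and 2 fell, S1pr1 and Esam. The call of Esam was lost without BBBPH 3_4, model 1_1, model 2_1 or model 3_4 (adjusted p from 0.0523 to 0.0677). Cldn5, a tight-junction claudin, averaged 6.65 ± 0.609 FPKM in BBBPH livers and 4.11 ± 0.594 FPKM in model livers (log2 fold change 0.59, adjusted p = 0.000241). Erg, an endothelial transcription factor, averaged 3.28 ± 0.431 FPKM in BBBPH livers and 2.05 ± 0.618 FPKM in model livers (0.51, adjusted p = 0.008), and this call was lost with the 3 libraries that stood apart left out.

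Of 7 tested genes of large-vessel and continuous-capillary endothelium, only Plvap passed the test in model against control livers. Plvap encodes the diaphragm protein of fenestrae and caveolae, and averaged 24.9 ± 0.969 FPKM in BBBPH livers, 34.4 ± 3.69 FPKM in model livers and 19.3 ± 2.17 FPKM in control livers. The 3 groups did not overlap for Plvap, which rose by 0.80 in model against control livers (adjusted p = 8.72e-06) and fell by 0.45 in BBBPH against model livers (adjusted p = 0.00107). Aqp1, a water channel, rose by 0.35 in BBBPH against model livers (adjusted p = 0.0199). That call was lost without BBBPH 2_2, without BBBPH 3_2 and with the 3 libraries that stood apart left out (adjusted p from 0.0506 to 0.123). Cd34, Sox17, Efnb2 and Fbln2 were below the filter.

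Basement membrane genes of vessels, made also by stellate cells, were called in 4 of 7 tested cases in model against control livers, all higher (29.9% of all genes), with a median of 0.36. The same 4, Col4a1, Col4a2, Lamb1 and Nid1, fell in BBBPH against model livers (12.2% of all genes), where the median was -0.25, although only 2 of them passed with the 3 libraries that stood apart left out. Col4a1, a chain of type IV collagen, averaged 5.5 ± 0.415 FPKM in BBBPH livers, 9.65 ± 2.17 FPKM in model livers and 3.62 ± 0.958 FPKM in control livers. It rose by 1.21 in model against control livers (adjusted p = 2.45e-05) and fell by 0.69 in BBBPH against model livers (adjusted p = 0.00232). Of 7 markers of stellate cells, 6 rose in model against control livers, and 2, Colec11 and Dcn, fell in BBBPH against model livers. The rises of Lrat and Reln were not called relative to the pan-endothelial genes (adjusted p = 0.169 and 0.103). The summed level of the 7 stellate cell markers was 153 to 171 FPKM in BBBPH livers, 165 to 205 FPKM in model livers and 130 to 156 FPKM in control livers. Their part in the basement membrane result was not tested.

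Among 7 tested VEGF ligands and other receptors, Vegfa, the main ligand of the Kdr receptor and made largely by hepatocytes in liver, fell by 0.54 in model against control livers (adjusted p = 0.00204) and rose by 0.42 in BBBPH against model livers (adjusted p = 0.013). It averaged 18.4 ± 2.73, 13.3 ± 0.797 and 20 ± 3.42 FPKM in BBBPH, model and control livers. Flt4, described above, was the other gene called in model against control livers. In BBBPH against model livers 3 of 7 rose (14.2% of all genes) and 0 fell (12.2%), the other two being Nrp1, a co-receptor of VEGF (0.63, adjusted p = 0.00337), and the ligand Vegfb (0.59, adjusted p = 0.0117).

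Of 11 tested genes of the nitric oxide pathway, 1 rose and 3 fell in model against control livers, and 1 rose and 1 fell in BBBPH against model livers. Ddah1, an enzyme that breaks down an inhibitor of nitric oxide synthase, rose by 0.85 (adjusted p = 0.000801) and averaged 32.5 ± 7.21, 45.7 ± 9.69 and 24.4 ± 2.4 FPKM in BBBPH, model and control livers. Ddah1 fell by 0.48 in BBBPH against model livers (adjusted p = 0.0357), a call lost in 9 alternatives besides the replicate block. Klf2, a flow-responsive transcription factor that drives Nos3 in endothelium, fell by 0.39 (adjusted p = 0.00223), and Gch1, which makes the synthase cofactor, fell by 0.45 (adjusted p = 0.00692). Klf2 averaged 5.87 ± 0.555 FPKM in BBBPH livers, 6.47 ± 0.707 FPKM in model livers and 8.79 ± 0.938 FPKM in control livers, and it stayed lower in BBBPH than in control livers (-0.51, adjusted p = 0.000903). Akt1, the kinase that activates the synthase, fell by 0.17 in model against control livers (adjusted p = 0.0174) and rose by 0.25 in BBBPH against model livers (adjusted p = 0.00249). Gch1 averaged 45.9, 48.4 and 66.8 FPKM in BBBPH, model and control livers, and Akt1 24.0, 20.1 and 22.7 FPKM. Nos3 averaged 0.886, 1.48 and 0.902 FPKM in the same order. These are levels in whole liver RNA, and whether the pathway genes changed in endothelium or in other cells was not tested.

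Of 6 tested angiocrine factors, Hgf, the hepatocyte growth factor, rose by 0.32 (adjusted p = 0.0102, not called under median-ratio or quantile scaling), while Bmp2 and Bmp6, which signal iron status to hepatocytes, fell by 0.43 (adjusted p = 0.00825) and 0.40 (adjusted p = 0.0317) in model against control livers. The call of Bmp6 was lost in 7 alternatives besides the replicate block, among them leaving out model 1_4. In BBBPH against model livers, Hgf was the only call and fell by 0.31 (adjusted p = 0.0175). Whole liver RNA does not show which cells made these factors. Of 4 tested adhesion molecules for leukocytes, Jam2, Icam1 and Vcam1 rose in model against control livers, by 0.52 (adjusted p = 0.000128), 0.66 (adjusted p = 0.00632) and 0.59 (adjusted p = 0.0364). Vcam1 fell by 0.62 in BBBPH against model livers (adjusted p = 0.0395), its ranges overlapped in both comparisons, its rise was not called under median-ratio or quantile scaling, and neither call was kept with the 3 libraries that stood apart left out.

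**Figure D4:**
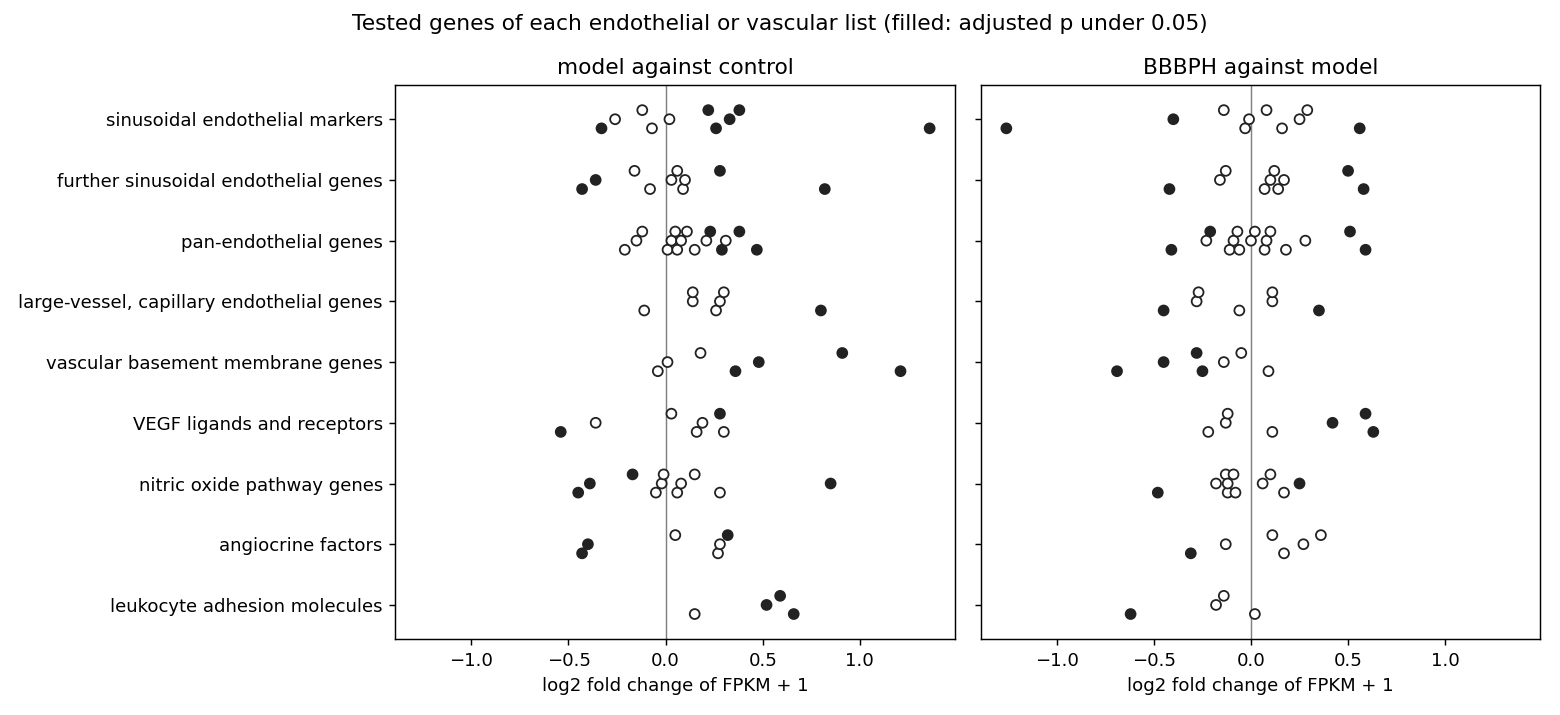
Log2 fold change of FPKM + 1 (x axis) of every tested gene (points) in the marker list and 8 further lists (rows), in model against control and BBBPH against model livers. Filled points passed an adjusted p of 0.05. The 4 filled basement membrane genes lie right of 0 on the left panel and left of 0 on the right panel.

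Other cells of the liver make some of the markers, and their own markers were read in the same libraries. The sum of 12 Kupffer cell and macrophage markers, cells that share Mrc1 and Fcgr2b, was 473 to 759 FPKM in BBBPH livers, 409 to 669 FPKM in model livers and 399 to 522 FPKM in control livers. Of these 12, Fcer1g and Cd68 were called higher in model against control livers and Marco and Timd4 in BBBPH against model livers. Relative to the pan-endothelial genes, only Marco kept its call (adjusted p = 0.0268). Fcer1g, Cd68 and Timd4 did not (adjusted p = 0.0533, 0.0959 and 0.0587). These 4 genes, and Colec11, Dcn and Prox1, are named because their counts were small. Lrat and Reln are named for a lost call, and all of these were chosen after their values had been seen. B cells also make Fcgr2b, and the sum of 6 B cell markers was 1.03 to 3.73 FPKM in BBBPH livers, 1.13 to 2.42 FPKM in model livers and 0.695 to 2.39 FPKM in control livers. All 6 were below the filter.

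Platelets and megakaryocytes carry Vwf and Pecam1, and the sum of their 6 markers was 1.41 to 3.57 FPKM in BBBPH livers, 1.92 to 5.23 FPKM in model livers and 1.28 to 3.31 FPKM in control livers, with 5 of 6 below the filter. Lymphatic endothelium carries Lyve1, and the sum of its 4 markers was 16.7 to 30.9 FPKM in BBBPH livers, 9.29 to 14.8 FPKM in model livers and 9.08 to 15 FPKM in control livers. Of these 4, Pdpn and Mmrn1 were below the filter, and Prox1, which hepatocytes also make, rose in BBBPH against model livers (0.94, adjusted p = 0.00361). Prox1 averaged 20.5 ± 6.6 FPKM in BBBPH livers, 9.92 ± 2.01 FPKM in model livers and 9.5 ± 2.59 FPKM in control livers, and so made up most of these sums. None of these markers of other cells was at 0 in all libraries of a group except for muscle genes, and their part in the changes of the 10 markers was not tested.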

How the data were processed

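Total liver RNA was extracted with TRIzol and made into libraries with the VAHTS Universal V6 kit, per the labels' protocols, which do not state strand use. The values are FPKM as deposited by the authors, 1 column per library and not pooled. Tools named in the submitters' processing notes are HISAT2, HTSeq, fastp and DESeq2, with the build mm10 and no version or role, and the annotation is not given in the sources used here. The series table and the files of single libraries differed by at most 0 FPKM.

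The 9575 genes that averaged 1 FPKM or more were tested on log2(FPKM + 1) with limma 3.58.1 in R 4.3.3 (3 group means over 15 libraries, 12 residual degrees of freedom, eBayes with trend=TRUE, 2-sided, Benjamini and Hochberg within each comparison), calling at an adjusted p under 0.05. The log2 scale with a pseudocount of 1 understates changes of low genes. All 10 markers passed the filter. The procedure was tested on simulated data. Python 3.11.15 with numpy 2.4.6, pandas 2.3.3 and matplotlib 3.10.9 was used for tables and plots.

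Depth was read from the steps of the values, with 1 constant per library and 1 length per gene. For 16974 of the 17051 genes above 0 in some library, a length was found that put every value within 0.02 of whole fragments. Genes without such a length were left out, so this closeness was set by the search and is no check of it. The length equalled the GENCODE exon length for 680 genes, and otherwise the smallest that passed was used. The recovered counts were used as an alternative with limma's voom. Chi-square per gene between libraries of a group was 28.7 to 310, far above the 1 of sampling noise alone, so no library was a copy of another in its group. Pairs that held model 1_4 gave 216 to 310, and every other pair gave at most 107. Model 1_4 thus differed from its group over genes as a whole, beyond the hepatocyte markers. Pairs from different groups were not compared in this way. Symbols were matched to GENCODE M21 (16906 to 1 gene).

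The markers, the other lists and the tests were chosen with earlier results of these data known. All 10 markers are named, and, from each further list, up to 3 genes with the smallest adjusted p and any called in opposite directions in the first 2 comparisons. Near patterns were sought for Stab2 and Kdr, skipping clone-like symbols. Alternatives were a filter at 5 FPKM or none, a pseudocount of 0.1, rescaling to TPM, by median ratios or by quantiles, centring on the pan-endothelial genes, eBayes with trend=FALSE or robust=TRUE, a fit of 2 groups, voom, the replicate number as a block, each library left out, and the 3 libraries that stood apart left out together.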

Additional observations from a re-analysis of the deposited data

Results flagged for a closer look

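A library lay far from the other 4 of its group in 2 of the genes described, by the ratio of its gap to the group's range (critical value 0.71 for 5 libraries, which chance passes in about 1 of 20 groups). Fam167b was 12.3 FPKM in BBBPH 2_2, against 9.5 to 10.2 FPKM in the other BBBPH livers. Icam1 was 12.5 FPKM in model 1_4, against 5.71 to 6.7 FPKM in the other model livers.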

How the results depend on the processing

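Both calls of Lyve1 held in every alternative run, the replicate block included. Kdr and Nos3 in BBBPH against model held in all but the replicate block, except that Nos3, like Vwf, was below the filter at 5 FPKM and not tested there. All-gene counts of calls were 3692 (model against control), 2533 (BBBPH against model) and 2691 (BBBPH against control). They became 2259, 1634 and 1502 with the filter at 5 FPKM, for which fewer genes were tested. In BBBPH against control they became 1611 with median-ratio scaling and 1545 with quantile scaling. The split of 2865 higher and 827 lower calls in model against control became 1483 and 1809 with median-ratio scaling, 1534 and 1734 with quantile scaling and 1350 and 1510 with pan-endothelial centring. The split of 2337 and 354 in BBBPH against control became 667 and 944, 710 and 835, and 423 and 842. Voom on recovered counts called 3651, 2570 and 2658 genes.

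With each library left out in turn, all-gene counts ran from 3100 to 3763, from 2080 to 2645 and from 1864 to 2846 in the 3 comparisons, and called markers from 4 to 6, from 3 to 4 and from 1 to 3. The markers called in BBBPH against control, 2 at first, were 1 with no filter, with the filter at 5 FPKM and with the 3 libraries left out together, and 0 with median-ratio scaling, quantile scaling and pan-endothelial centring.

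The replicate number as a block, at 4 residual degrees of freedom, gave 1315, 305 and 185 calls, with 1, 1 and 0 markers called, those being Lyve1 in both cases. Residuals of the 8 same-numbered pairs of libraries correlated at -0.329 to 0.0239, and 0 of 10 libraries correlated best with their own number, so the numbers were not treated as pairing.

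Changes of sign concerned differences that passed no test. In model against control, Stab1 went to -0.12 with median-ratio and quantile scaling, -0.10 with centring, -0.06 with the block and from -0.03 to 0.06 with a library left out, and Clec4g went to 0.10 with the block and 0.08 without model 1_4 (from -0.17 to 0.08 over all libraries left out) or without the 3 libraries. In BBBPH against model, Pecam1 ran from -0.07 to 0.01 and Vwf from -0.08 to 0.03 with a library left out, and Vwf was 0.04 with the block. In BBBPH against control, median-ratio scaling, quantile scaling and centring gave -0.05, -0.06 and -0.07 for Lyve1, -0.05, -0.04 and -0.05 for Stab1, -0.07, -0.06 and -0.08 for Stab2, and -0.12, -0.07 and -0.11 for Mrc1, which was -0.02 with the block. With a library left out, Lyve1 ran from -0.03 to 0.19, Nos3 from -0.05 to 0.04 and Fcgr2b from -0.06 to 0.04. The cause of these shifts was not tested. Over all alternatives, 744 values of single markers kept direction and call, 45 lost a call, 10 gained a call and 35 changed sign. Depth limits Nos3 most, at 94 fragments in its lowest library.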
